A study of Homo sapiens with 12 samples.

Results

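The 3 superoxide dismutases and 7 target genes of the transcription factor NRF2 were followed across 12 arrays of human proximal tubular cells (HPTC) treated with interleukin-1β (IL-1β) or empagliflozin (Empa). The 10 genes were SOD1, SOD2, SOD3, HMOX1, NQO1, GCLC, GCLM, TXNRD1, SRXN1 and SLC7A11, out of 25992 gene names on the array. They were taken by name from the array's own annotation, and each was read by 1 probe of 60 bases.

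Superoxide dismutases turn superoxide into hydrogen peroxide, SOD1 mainly in the cytosol, SOD2 in mitochondria and SOD3 outside the cell. NRF2, encoded by NFE2L2, is held at low levels by KEAP1, and oxidants or electrophiles release it to act with small MAF proteins on genes for heme breakdown, quinone reduction, glutathione and thioredoxin, which BACH1 represses. Proximal tubular cells are rich in mitochondria, and SOD2 is a known target of NF-κB, the factor that IL-1β activates.

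The study asked how Empa, an inhibitor of the glucose transporter SGLT2, and the inflammatory cytokine IL-1β act on gene expression in HPTC. Cells of the immortalized lines HK-2 and RPTEC/TERT1 were kept without serum for 24 h and then given medium alone, 10 ng/mL of IL-1β or 500 nM of Empa over the next 24 h. Each of the 6 groups of line and treatment held 2 arrays, and each of 4 slides carried the control, IL-1β and Empa array of 1 line label and 1 replicate number. The slides are named by that line and number, as HK-2 slide 1 or RPTEC/TERT1 slide 2. The study's methods call the arrays of a group biological duplicates, and 4 slides limit the precision of every value.

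The arrays did not group by their line labels. The sample titles split the arrays between HK-2 and RPTEC/TERT1, while the source field named HK-2 on all 12. Across the 15329 probes that stood well above background everywhere, the control array of HK-2 slide 1 had a Pearson r across probes of 0.984 with that of RPTEC/TERT1 slide 2 and 0.880 with that of HK-2 slide 2. The control array of RPTEC/TERT1 slide 1 had an r of 0.973 with that of HK-2 slide 2 and 0.875 with that of RPTEC/TERT1 slide 2. Probes are not independent replicates. The same pairs of slides gave 0.984 and 0.982 for the IL-1β arrays, against 0.869 and 0.865 within labels, and 0.960 and 0.979 for the Empa arrays, against 0.852 and 0.863. The other pairs across labels resembled those within them, with 0.882 and 0.882 in control, 0.877 and 0.880 with IL-1β and 0.835 and 0.889 with Empa. Whether the labels of 2 slides were exchanged cannot be told from the files, and the labels were kept. For this reason each treated array is compared with the control array of its own slide, which does not use the line label, and each member's differences are given for every slide with a usable spot.

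Markers of the proximal tubule were partly present. Of 13, the genes LRP2, AQP1, GGT1, SLC5A2 (the gene for SGLT2), SLC22A8 and PAX8 were well above background on all 12 arrays, 6 in all, and the 3 defining genes SLC22A6, HNF4A and VIL1 on none. Of 7 distal tubule and collecting duct markers none was on all arrays and 5 were on none, while UMOD was well above background on 11 arrays and SLC12A1 on 6. Of the other markers, VIM of 6 mesenchymal, CDH5 of 4 endothelial and PTPRC of 4 leukocyte genes were above background on all arrays. With IL-1β, 2 of 7 tested proximal tubule markers passed the test described next, LRP2 (log2 difference -2.44) and SLC34A1, both lower, beside 12.4% of all genes called and 7.91% lower. SLC34A1 was well above background on 4 of 12 arrays and entered the test only through the HK-2 control arrays, so nothing is read from its call. None of the tested mesenchymal, endothelial and leukocyte markers passed. None of the 7 distal markers could be tested. With IL-1β, SLC12A1 stood at 298 scaled signal units on HK-2 slide 1 and 292 on RPTEC/TERT1 slide 2, beside 8482 and 13333 on their control arrays, and on the other slides it was not well above background. The part of the markers in the results was not tested. In bulk RNA, fewer cells of a type and less RNA per cell cannot be told apart.

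Signals are given as log2 levels relative to the 75th percentile of the same array, so that a level of 0 equals that percentile. That percentile lay between 298 and 765 signal units, and 53.5% to 63.1% of probes were well above background. A difference is a treated minus a control log2 level on 1 slide. The fitted difference is the limma estimate over the 4 slides with slide as a block, and a gene is called at an adjusted p under 0.05 over all 15717 genes tested. Each gene has 1 SE for both treatments, so its Empa p-value also carries the spread of its IL-1β differences, and the reverse. IL-1β changed 1955 genes, 12.4% of those tested (4.52% higher and 7.91% lower), and Empa changed 1, or 0.00636%. The split by direction moved with the scaling, to 838 genes higher and 1025 lower with IL-1β after quantile normalization. The IL-1β count was 8 without the slide block, and with an array or slide left out it lay between 445 (without RPTEC/TERT1 slide 2) and 2963 (without the Empa array of HK-2 slide 1), so the share of 12.4% moves with these choices. IL-1β changed 1 of the 9 tested members, SOD2, and Empa changed 0 by limma. At an unadjusted p under 0.05, the counts were 3 members with IL-1β (SOD2, TXNRD1 and SLC7A11) beside 4435 of all 15717 genes, and 1 with Empa (GCLC) beside 1887. The median fitted difference of the 9 members was 0.32 with IL-1β and 0.20 with Empa, beside -0.11 and -0.02 for all genes. SOD3 was not tested, since its spot on the IL-1β array of HK-2 slide 2 was marked as an outlier by the scanner software. Both treatments share the 4 control arrays, so their values are set side by side and not compared with each other.

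**Figure D1:**
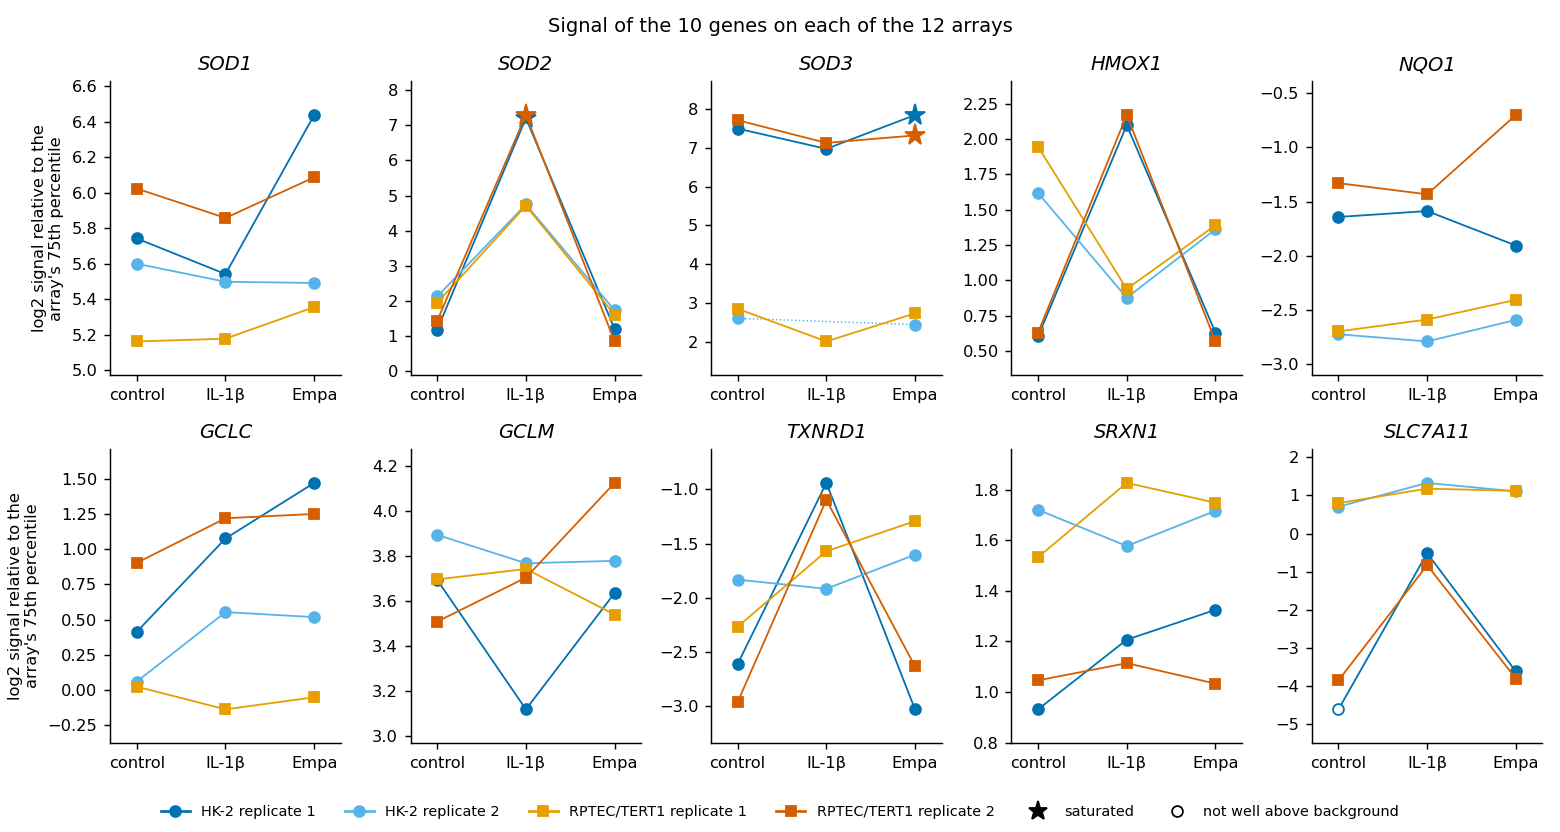
Each panel shows 1 gene's log2 level relative to the array's 75th percentile (vertical axis) in control, IL-1β and Empa arrays (horizontal axis), with a line for each of the 4 slides, stars for saturated spots and open points for spots not well above background. SOD2 stood at 4.71 to 7.29 on the IL-1β arrays and at 2.13 or less on the others, while SOD3, where it had a value, and SLC7A11 split the slides into a high and a low pair in every treatment; each panel has its own scale.

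SOD1, the cytosolic copper and zinc enzyme, passed the test under neither treatment. Its control levels ran from 5.16 on RPTEC/TERT1 slide 1 to 6.02 on RPTEC/TERT1 slide 2. Its levels with IL-1β ran from 5.18 to 5.86 and with Empa from 5.36 to 6.44. The 3 groups overlapped. On HK-2 slides 1 and 2 and RPTEC/TERT1 slides 1 and 2 the differences were -0.20, -0.10, 0.02 and -0.17 with IL-1β and 0.70, -0.11, 0.19 and 0.06 with Empa. The means were 5.63 ± 0.36 in control, 5.52 ± 0.28 with IL-1β and 5.84 ± 0.51 with Empa (SD, 4 arrays each). The fitted differences were -0.11 with IL-1β (SE 0.18, adjusted p = 0.720, lower on 3 of 4 slides) and 0.21 with Empa (SE 0.18, adjusted p = 0.619, higher on 3 of 4 slides).

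SOD2, the manganese enzyme of mitochondria, rose with IL-1β on all 4 slides. Its signal came from 1 probe on the minus strand of chromosome 6 (hg19, chr6:160103590-160103649). The sequence is shown because the largest response among the members rests on this probe, which shares no run of 16 bases with any other gene's probe on the array.
SOD2 probe: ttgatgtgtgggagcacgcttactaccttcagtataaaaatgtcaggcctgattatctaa

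The control levels of SOD2 were 1.18 on HK-2 slide 1, 2.13 on HK-2 slide 2, 1.95 on RPTEC/TERT1 slide 1 and 1.44 on RPTEC/TERT1 slide 2. With IL-1β they were 7.20, 4.75, 4.71 and 7.29 on those slides. The lowest IL-1β array stood above the highest control array, so the groups did not overlap. HK-2 slide 1 and RPTEC/TERT1 slide 2, the slides with the lowest control levels, reached the highest levels with IL-1β, and there the spot was saturated. The rise was therefore at least 64.9-fold on HK-2 slide 1 and at least 57.9-fold on RPTEC/TERT1 slide 2, beside 6.15-fold on HK-2 slide 2 and 6.78-fold on RPTEC/TERT1 slide 1. The fitted difference was 4.31 (SE 0.63, adjusted p = 0.00352), with saturated values taken as read. Without the slide block the estimate was the same and the call was lost (adjusted p = 0.0881), in a fit that called 0.0509% of genes. SOD2 was also among the genes the study had picked from these arrays, so its rise is not independent evidence.

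With Empa, SOD2 stood at 1.20, 1.73, 1.61 and 0.85 on HK-2 slides 1 and 2 and RPTEC/TERT1 slides 1 and 2. The differences from control were 0.02, -0.39, -0.34 and -0.59. On 3 of 4 slides Empa was lower, and the fitted difference was -0.33 (SE 0.63, adjusted p = 0.834). In order of level, IL-1β was highest (mean 5.99 ± 1.46), and the ranges of control (1.67 ± 0.44) and Empa (1.35 ± 0.40, SD, 4 arrays each) overlapped. Within slides, the Empa differences had an SD of 0.25 and the IL-1β differences 1.88, while the fitted SE of 0.63 was shared by both treatments.

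SOD3, the secreted enzyme, differed widely between slides before any treatment. Its control levels were 7.50 on HK-2 slide 1 and 7.72 on RPTEC/TERT1 slide 2, but 2.60 on HK-2 slide 2 and 2.85 on RPTEC/TERT1 slide 1. Each line label thus held 1 slide with a high and 1 with a low level. The range over the 4 control arrays was 5.12 on the log2 scale, or 34.8-fold, and 1.62% of tested genes had a range as large, beside a median range of 1.06. The same slides differed in the distal tubule marker SLC12A1, well above background on the 6 arrays of HK-2 slide 1 and RPTEC/TERT1 slide 2 only. The summed scaled signal of the 7 distal markers was 8576 and 13412 units on the control arrays of those slides, nearly all from SLC12A1, beside 118 on HK-2 slide 2 and 79.9 on RPTEC/TERT1 slide 1, where UMOD was the brightest. With IL-1β the sums were 363 and 368 beside 75.8 and 71.6, and with Empa 11483 and 12546 beside 93.4 and 55.8. The 13 proximal tubule markers, with PAX8 the brightest, summed to 4782 and 4813 on the control arrays of the former slides and to 2955 and 2515 on the latter. With IL-1β these sums were 8574 and 8074 beside 1684 and 1922, and with Empa 10024 and 5158 beside 2171 and 2383. On HK-2 slide 1 and RPTEC/TERT1 slide 2 the higher sums came mainly from PAX8. That gene alone stood at 2846 and 2761 in control, 6616 and 5767 with IL-1β and 8467 and 3601 with Empa. Their part in the levels of SOD3 was not tested.

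With IL-1β, SOD3 stood at 6.98 on HK-2 slide 1, 2.00 on RPTEC/TERT1 slide 1 and 7.13 on RPTEC/TERT1 slide 2, which gave differences of -0.53, -0.84 and -0.59. It was lower on all 3 slides with a usable spot. With the outlier spot kept, the difference on HK-2 slide 2 was -0.52 and the fitted difference -0.62 (SE 0.17, adjusted p = 0.0408), lower on 4 of 4 slides. That fit covered 16065 genes, of which 12.8% were called. With Empa the levels were 7.85, 2.44, 2.73 and 7.33 on HK-2 slides 1 and 2 and RPTEC/TERT1 slides 1 and 2, with saturated spots on HK-2 slide 1 and RPTEC/TERT1 slide 2. The differences were -0.16 on HK-2 slide 2 and -0.12 on RPTEC/TERT1 slide 1. On HK-2 slide 1 the Empa array was at least 1.28-fold higher than control, and on RPTEC/TERT1 slide 2 the saturated spot read 0.39 below control, which gives no bound. The fit with the outlier kept took saturated values as read and gave -0.08 (SE 0.17, adjusted p = 0.848).

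HMOX1, which encodes the inducible heme oxygenase, had IL-1β differences of opposite sign on different slides. Its control levels were 0.60 on HK-2 slide 1, 1.62 on HK-2 slide 2, 1.95 on RPTEC/TERT1 slide 1 and 0.63 on RPTEC/TERT1 slide 2. With IL-1β they were 2.10, 0.88, 0.94 and 2.17. The slides with the lower control levels had the higher IL-1β levels. The differences were 1.50 on HK-2 slide 1 and 1.54 on RPTEC/TERT1 slide 2, against -0.74 on HK-2 slide 2 and -1.01 on RPTEC/TERT1 slide 1. As folds, these were 2.82 and 2.91 times the control, against 0.598 and 0.498 times.

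The fitted IL-1β difference of HMOX1, 0.32 (SE 0.44, adjusted p = 0.680), averaged over these opposite values. Each line label and each scan date held 1 slide where HMOX1 was higher with IL-1β and 1 where it was lower. The split was common on these arrays, since 1254 genes, 7.98% of those tested, were higher with IL-1β on HK-2 slide 1 and RPTEC/TERT1 slide 2 and lower on the other slides, and 1143, 7.27%, had the reverse. Other ways of splitting the slides evenly held 0.783% to 4.00% of genes. With Empa, HMOX1 stood at 0.63, 1.36, 1.39 and 0.57 on HK-2 slides 1 and 2 and RPTEC/TERT1 slides 1 and 2. The differences, 0.03, -0.26, -0.56 and -0.06, gave a fitted -0.21 (SE 0.44, adjusted p = 0.849).

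NQO1, a quinone reductase often read as a marker of NRF2 activity, had levels below the array's 75th percentile throughout. Its control levels were -1.64 on HK-2 slide 1, -2.72 on HK-2 slide 2, -2.70 on RPTEC/TERT1 slide 1 and -1.33 on RPTEC/TERT1 slide 2, all well above background. The IL-1β differences on those slides were 0.05, -0.07, 0.11 and -0.10, and the fitted value was -0.0013 (SE 0.18, adjusted p = 0.997). The Empa differences were -0.26, 0.13, 0.29 and 0.63, with a fitted value of 0.20 (SE 0.18, adjusted p = 0.655).

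Glutathione synthesis was represented by GCLC and GCLM, the catalytic and modifier subunits of its rate-limiting enzyme, and by SLC7A11, which imports cystine. GCLC had control levels of 0.41 on HK-2 slide 1, 0.06 on HK-2 slide 2, 0.02 on RPTEC/TERT1 slide 1 and 0.90 on RPTEC/TERT1 slide 2. Its differences were 0.66, 0.49, -0.16 and 0.32 with IL-1β and 1.06, 0.46, -0.08 and 0.35 with Empa. Under each treatment 3 of 4 slides were higher than their control and RPTEC/TERT1 slide 1 was not. The fitted values were 0.33 (SE 0.19, adjusted p = 0.298) and 0.45 (SE 0.19, adjusted p = 0.403), the latter being the lowest adjusted p of any member with Empa.

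GCLM had control levels from 3.51 to 3.89, the narrowest range of the members at 0.38. Its IL-1β differences were -0.57 on HK-2 slide 1, -0.13 on HK-2 slide 2, 0.05 on RPTEC/TERT1 slide 1 and 0.19 on RPTEC/TERT1 slide 2, and its Empa differences were -0.06, -0.12, -0.16 and 0.62. Both treatments thus had slides on either side of 0. The fitted values were -0.11 (adjusted p = 0.732) and 0.07 (adjusted p = 0.880), each with an SE of 0.19. The GCLM probe was the only member's probe that shared runs of 16 bases with probes of other genes, 13 probes in all. The run shared most often, in 8 of them, is ATGCCTGTAATCCCAG. How much of the GCLM signal came from other transcripts was not tested.

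SLC7A11, like SOD3, differed widely between the control arrays. Its control levels were 0.70 on HK-2 slide 2 and 0.80 on RPTEC/TERT1 slide 1, but -4.61 on HK-2 slide 1, where the spot was not well above background, and -3.85 on RPTEC/TERT1 slide 2. The highest control array stood at least 42.4-fold above the dim one. The slides with low SLC7A11 were those with high SOD3.

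With IL-1β, SLC7A11 stood at -0.51 on HK-2 slide 1, 1.33 on HK-2 slide 2, 1.18 on RPTEC/TERT1 slide 1 and -0.83 on RPTEC/TERT1 slide 2. All 4 slides were higher than their controls, by at least 17.1-fold on HK-2 slide 1, where the control spot was dim, and by 0.62, 0.38 and 3.02 on the log2 scale on the others. The fitted difference, with the dim spot taken as read, was 2.03 (SE 0.60, adjusted p = 0.0559) and did not pass. It passed with a floor of 5 signal units in place of 1 (adjusted p = 0.0494), without the IL-1β array of RPTEC/TERT1 slide 1 (0.0239), without that of HK-2 slide 2 (0.0340) and without RPTEC/TERT1 slide 1 (0.0471), and over all arrays or slides left out in turn the adjusted p lay between 0.0239 and 0.242. Without the slide block the adjusted p was 0.974. The estimate was 1.06 with normexp background correction (adjusted p = 0.0548), 0.72 in the authors' table (0.0684) and 1.34 without HK-2 slide 1 (0.209). The Empa levels were -3.62, 1.10, 1.12 and -3.80, with differences of 0.99 (against the dim control spot), 0.40, 0.32 and 0.05 and a fitted 0.44 (SE 0.60, adjusted p = 0.759).

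TXNRD1, the cytosolic thioredoxin reductase, had control levels of -2.62 on HK-2 slide 1, -1.83 on HK-2 slide 2, -2.27 on RPTEC/TERT1 slide 1 and -2.97 on RPTEC/TERT1 slide 2. The IL-1β levels were -0.94, -1.92, -1.57 and -1.10. On HK-2 slide 1 and RPTEC/TERT1 slide 2 the difference was 1.68 and 1.87, on RPTEC/TERT1 slide 1 it was 0.70, and on HK-2 slide 2 it was -0.08. The fitted difference of 1.04 (SE 0.40, adjusted p = 0.127) did not pass, but did without the IL-1β array of HK-2 slide 2 (1.41, adjusted p = 0.0471), in a range of 0.0471 to 0.412 over all arrays or slides left out. The Empa differences were -0.42, 0.23, 0.98 and 0.33, with a fitted 0.28 (SE 0.40, adjusted p = 0.775).

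SRXN1, which encodes sulfiredoxin, an enzyme that restores overoxidized peroxiredoxins, had control levels from 0.93 to 1.72. Its IL-1β differences were 0.28 on HK-2 slide 1, -0.14 on HK-2 slide 2, 0.29 on RPTEC/TERT1 slide 1 and 0.07 on RPTEC/TERT1 slide 2. The Empa differences were 0.39, 0.00, 0.22 and -0.01. The fitted values, 0.12 with IL-1β (adjusted p = 0.623) and 0.15 with Empa (adjusted p = 0.667), were near their SE of 0.15.

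NRF2 acts through the antioxidant response element, whose core TGACNNNGC was searched on both strands of the 250 bases before the transcription start in RefSeq promoters (GRCh38.p14). For 7 of the 10 members the table held promoters, 11 in all, and 3 of the 11, 1 of GCLM and 2 of TXNRD1, held the core, beside 10.9% of 35116 promoters. The NF-κB consensus was in 0 of the 11 and in 9.96% of all promoters. Sites outside these 250 bases were not searched, so 0 of 11 does not show that the genes lack them. No promoter was available for SOD1, HMOX1 and SLC7A11. The promoters with the core are shown because the members were grouped as NRF2 targets, and capitals mark the core. In GCLM (minus strand, chr1:93909431-93909680) it reads TGACTAAGC on the strand opposite to the one printed and lies 34.0 bases before the start. In TXNRD1 (plus strand, chr12:104215529-104215778 and chr12:104286782-104287031, for 2 start sites) it reads TGACTTCGC on the printed strand, 99.0 bases before the start, and TGACAAAGC on the opposite strand, 102.0 bases before it.
GCLM promoter: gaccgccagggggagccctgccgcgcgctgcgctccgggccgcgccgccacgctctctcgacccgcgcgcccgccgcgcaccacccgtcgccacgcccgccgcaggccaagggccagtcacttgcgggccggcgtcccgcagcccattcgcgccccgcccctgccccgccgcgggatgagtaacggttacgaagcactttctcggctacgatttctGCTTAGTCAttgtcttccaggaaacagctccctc
TXNRD1 promoter, first start: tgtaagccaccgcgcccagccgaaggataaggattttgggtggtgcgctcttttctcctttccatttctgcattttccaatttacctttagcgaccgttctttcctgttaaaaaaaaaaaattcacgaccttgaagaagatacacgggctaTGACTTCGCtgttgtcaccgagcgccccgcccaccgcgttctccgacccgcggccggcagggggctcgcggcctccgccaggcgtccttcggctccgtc
TXNRD1 promoter, second start: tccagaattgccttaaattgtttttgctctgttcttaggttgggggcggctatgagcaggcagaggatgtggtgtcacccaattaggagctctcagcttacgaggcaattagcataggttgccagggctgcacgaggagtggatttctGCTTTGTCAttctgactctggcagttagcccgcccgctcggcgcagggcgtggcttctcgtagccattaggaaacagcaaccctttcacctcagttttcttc

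These matches describe letters in a window and say nothing of NRF2 binding in these cells. GCLM, with the core, was not called under either treatment, and neither was TXNRD1.

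**Figure D2:**
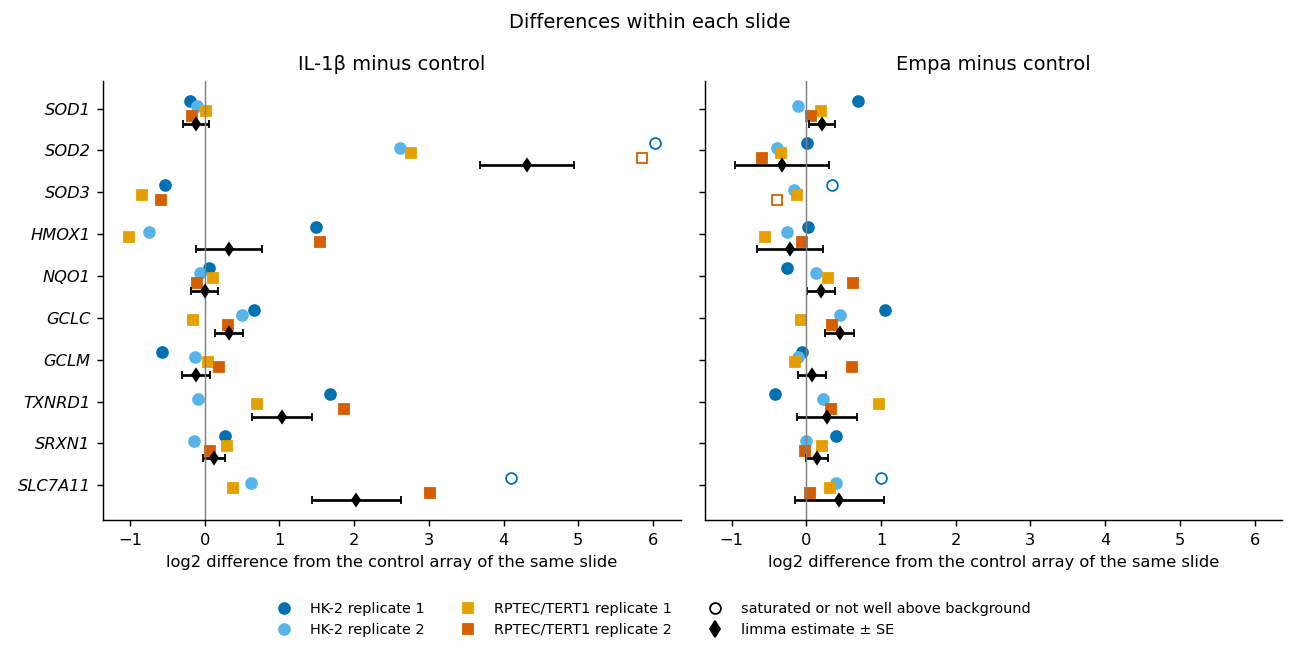
Points show the log2 difference of each treated array from the control array of its slide (horizontal axis) for the 10 genes (vertical axis), with IL-1β on the left and Empa on the right; open points mark differences that used a saturated or dim spot, and black diamonds with bars the limma estimate ± SE. With IL-1β all 4 slides lay right of 0 for SOD2 and SLC7A11, while HMOX1 had 2 slides near 1.5 and 2 between -1.01 and -0.74.

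A test of the difference between the line labels called no gene (0 by limma for IL-1β, 272 at an unadjusted p under 0.05, and 0 and 154 for Empa). Each label held 1 slide of each pair of alike arrays, so the test averaged unlike slides, and these counts say nothing on whether the lines respond alike.

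Genes known to respond to IL-1β were higher on every slide with a usable spot. NFKBIA, the NF-κB inhibitor that the factor itself induces, rose by 4.77 on HK-2 slide 1, 2.99 on HK-2 slide 2, 2.19 on RPTEC/TERT1 slide 1 and 4.81 on RPTEC/TERT1 slide 2 (fitted 3.69, SE 0.44, adjusted p = 0.00151). TNFAIP3, which encodes A20, was higher by 2.75, 2.39 and 6.13 on HK-2 slide 2 and RPTEC/TERT1 slides 1 and 2, and was not tested since its spot on HK-2 slide 1 was an outlier. The adhesion molecule gene ICAM1 was higher by 3.80, 0.52, 0.75 and 3.42 (fitted 2.12, SE 0.61, adjusted p = 0.0514). With the floor of 5 units ICAM1 passed (adjusted p = 0.0453). As for SOD2, the larger differences were on HK-2 slide 1 and RPTEC/TERT1 slide 2. With Empa, ICAM1 was lower on 4 of 4 slides, with differences of -0.54, -0.66, -0.19 and -0.82 (adjusted p = 0.703), and it too had been picked by the study on these arrays. The ICAM1 differences had an SD of 0.27 with Empa and 1.73 with IL-1β, while the SE of 0.61 was shared by both. NFKBIA was higher with Empa on 4 of 4 slides, by 0.70, 0.36, 0.08 and 0.14 (adjusted p = 0.762), and TNFAIP3 on 3 of 4, with differences of -0.30, 0.63, 0.04 and 0.21.

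Further lists of redox genes are set beside all genes tested, of which IL-1β called 12.4%, with 4.52% higher, 7.91% lower and a median of -0.11. Among 10 tested genes of NRF2 control, IL-1β changed 3, beside the 12.4% of all genes, and the list's median difference was 0.46. Of the 3, 2 rose and 1, BACH2, was lower from dim spots; without it the count is 2 of 9. BACH1, the repressor of HMOX1 and related genes, rose on all 4 slides (0.79, 1.06, 0.57 and 0.66 on HK-2 slides 1 and 2 and RPTEC/TERT1 slides 1 and 2; fitted 0.77, SE 0.18, adjusted p = 0.0273). MAFG, a small MAF partner of both NRF2 and BACH1, rose by 0.48 to 1.43 on the 4 slides (fitted 0.90, adjusted p = 0.0244). MAFF (fitted 2.04, adjusted p = 0.0525) did not pass, but did with the floor of 5 units (adjusted p = 0.0460). BACH2 (adjusted p = 0.00787) entered the test only through the HK-2 Empa arrays, and no IL-1β spot of it was well above background, so nothing is read from its call. It was at least 2.80-fold lower on HK-2 slide 1 and at least 3.46-fold lower on RPTEC/TERT1 slide 2, and on the other slides the control spot was dim too. Neither NFE2L2, with differences of 0.15, 0.97, -0.20 and 0.89 (the last against a dim control spot), nor KEAP1, with 0.41, -0.36, -0.10 and 0.17, passed (adjusted p = 0.422 and 0.954). A probe level says nothing of NRF2 protein, which KEAP1 controls after translation.

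Of 28 other NRF2 targets tested, IL-1β lowered 2 and raised 0, beside 7.91% and 4.52% of all genes, with a median of 0.02. AKR1B10 and ABCC2, not called, entered the test only through the HK-2 IL-1β arrays. Nothing is therefore read from their values or from the list's median. CBR3 was higher by 0.52 to 1.30 on the 4 slides (fitted 0.92, adjusted p = 0.0507). With the floor of 5 units it passed (adjusted p = 0.0465). The epoxide hydrolase gene EPHX1 fell by 0.81 to 1.74 on the 4 slides (fitted -1.15, adjusted p = 0.00904) and the heme transporter gene SLC48A1 by 0.96 to 1.50 (fitted -1.25, adjusted p = 0.00916). AKR1C1, an aldo-keto reductase gene, had differences of 2.85 on HK-2 slide 1 and 2.87 on RPTEC/TERT1 slide 2, while it was at least 5.72-fold lower on HK-2 slide 2 and at least 3.93-fold lower on RPTEC/TERT1 slide 1, where the IL-1β spots were dim. The slides split as they did for HMOX1.

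Of 22 glutathione genes tested, IL-1β changed 4, beside 12.4% of all genes, with 2 higher and 2 lower and a median of -0.26. GPX2, not called, entered the test only through the RPTEC/TERT1 IL-1β arrays, so nothing is read from its value. Glutaredoxin 2 (GLRX2) rose by 0.48 to 1.46 on the 4 slides (fitted 0.94, adjusted p = 0.0164) and the omega-class transferase GSTO1 by 0.37 to 0.99 (fitted 0.67, adjusted p = 0.0278). The kappa-class transferase GSTK1 fell by 0.28 to 0.87 (fitted -0.64, adjusted p = 0.0471), and the microsomal transferase MGST2 fell too. Of 15 tested genes of thioredoxin, peroxiredoxin and catalase, 4 were called and all 4 fell, beside falls in 7.91% and rises in 4.52% of all genes. The list's median of -0.15 was close to the -0.11 of all genes. At an unadjusted p under 0.05 the count was 9 of 15, beside 4435 of all 15717 genes. Among those not called, PRDX1, PRDX4 and TXN were higher (fitted 0.70, 0.65 and 0.57, adjusted p = 0.0843, 0.0620 and 0.0860). TXN2 and CCS were lower (-0.49 and -0.45, adjusted p = 0.152 and 0.0947). TXNIP, the thioredoxin inhibitor, fell by 2.98 (SE 0.77, adjusted p = 0.0358), catalase (CAT), which breaks down hydrogen peroxide, by 1.53 (SE 0.18, adjusted p = 0.00146), the stress-response gene SESN1 by 1.28 (SE 0.35, adjusted p = 0.0440) and the peroxiredoxin gene PRDX2 by 1.04 (SE 0.26, adjusted p = 0.0348). On the 4 slides SESN1 was lower by 0.97 to 1.58 and PRDX2 by 0.67 to 1.24. CAT was lower by similar amounts on every slide (-1.96, -1.40, -1.30 and -1.47 on HK-2 slides 1 and 2 and RPTEC/TERT1 slides 1 and 2), whereas TXNIP had differences of -5.15 and -4.21 on HK-2 slide 1 and RPTEC/TERT1 slide 2 and of -1.27 and -1.30 on HK-2 slide 2 and RPTEC/TERT1 slide 1.

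Of 7 tested genes that make superoxide or peroxide, IL-1β changed 3, beside 12.4% of all genes, with a median of 0.54 beside -0.11. The aldehyde oxidase gene AOX1 (adjusted p = 0.0296), 1 of the 3, entered the test only through the HK-2 IL-1β arrays, where it is high. Nothing is therefore read from its call or from the median that includes it, and without AOX1 the count is 2 of 6. Its size too rests on dim spots. It was 5.56-fold higher on RPTEC/TERT1 slide 1, at least 7.12-fold on HK-2 slide 1 and at least 4.78-fold on HK-2 slide 2, and on RPTEC/TERT1 slide 2 neither spot was well above background. Its fitted difference moved from 3.19 to 2.03 with the floor of 5 units (adjusted p = 0.0423). RAC2, a GTPase of the NADPH oxidase, rose by 0.85 to 2.00 on the 4 slides (fitted 1.37, adjusted p = 0.00879), and the oxidase activator gene NOXA1 fell by 0.87 to 1.77 (fitted -1.27, adjusted p = 0.0170). The other 12 genes on that list were not tested, among them every catalytic subunit of the NADPH oxidases on it.

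Empa changed 0 genes of these lists by limma. At an unadjusted p under 0.05 the counts were 0 of 10 in NRF2 control and 2 of 28 other targets. They were 2 of 22 glutathione genes, 2 of 15 for thioredoxin, peroxiredoxin and catalase and 0 of 7 producers, beside 1887 of all 15717 genes. The list medians were -0.02 in NRF2 control, -0.12 for other targets, -0.13 for glutathione, -0.20 for thioredoxin, peroxiredoxin and catalase and -0.13 for superoxide and peroxide producers, beside -0.02 for all genes. The 2 widest fitted differences in each list are given as values, so they were picked for their size. In NRF2 control they were -1.18 for MAFF and -0.49 for NFE2L2 (adjusted p = 0.445 and 0.560), and among other targets -1.09 for the transporter gene ABCC3 and -0.84 for AKR1C1 (0.137 and 0.735). They were -0.76 for GPX3 and -0.68 for GGT1 (0.573 and 0.231), -0.76 for PRDX2 and -0.71 for PRDX5 (0.345 and 0.331), and -0.52 for CYBA and -0.18 for NOXA1 (0.469 and 0.785). Of these 10, ABCC3, GGT1, PRDX2, PRDX5, MAFF, AKR1C1 and CYBA were lower on 4 of 4 slides and GPX3 on 3, while NFE2L2 and NOXA1 were higher on 2 of 4, and NFE2L2 had dim spots on 2 of the 4 slides. MAFF and ABCC3 had been picked by the study on these arrays. Across all genes, the only call with Empa was DHRS2, a short-chain dehydrogenase gene outside these lists that is named after its value was seen.

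**Figure D3:**
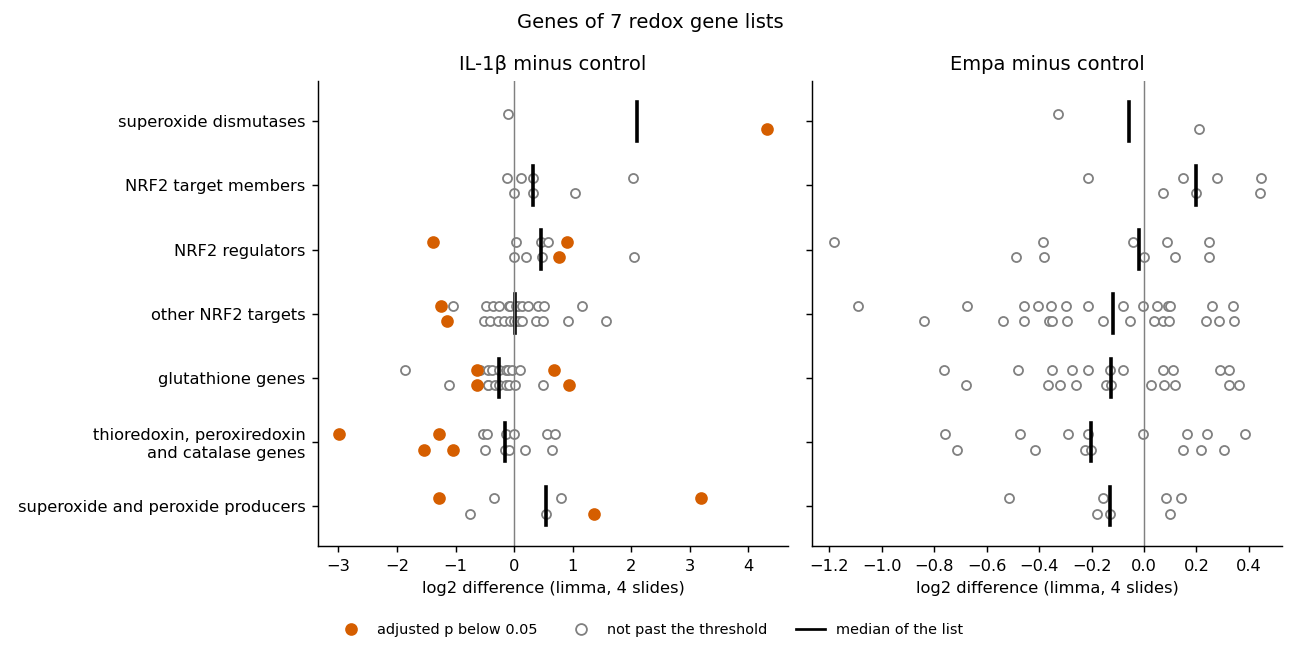
Points are genes placed by their fitted log2 difference (horizontal axis) in 7 lists of redox genes (vertical axis), with IL-1β on the left and Empa on the right; filled points passed an adjusted p of 0.05 and black lines are list medians. With IL-1β the 4 called thioredoxin, peroxiredoxin and catalase genes all lie left of 0, while genes of that list that were not called lie on both sides. With Empa no point is filled. The panels differ in scale.

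The genes whose pattern was most like that of SOD2 included the cytokine gene IL6 and the chemokine gene CXCL2. Over the 8 within-slide differences (4 with IL-1β and 4 with Empa, which share controls), and among 12611 genes above background on all arrays, the 5 closest were SLC39A14, a zinc and manganese transporter gene, IL6, CXCL2, IQCD and the acyl-CoA synthetase gene ACSL5 (Pearson r from 0.992 to 0.998). The SOD2 differences on HK-2 slide 1 and RPTEC/TERT1 slide 2 with IL-1β came from saturated spots taken as read, so these r values are approximate and give no order. All 5 rose with IL-1β, IL6 by a fitted 6.95 and CXCL2 by 7.59. CXCL2 and ACSL5, like SOD2, had been picked by the study on these arrays. SLC39A14 rose by 3.66, 1.51, 1.70 and 3.27 on HK-2 slides 1 and 2 and RPTEC/TERT1 slides 1 and 2. These r values describe genes picked as the highest of many, with no test.

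For HMOX1 the closest were the aldo-keto reductase gene AKR1C3 (0.988), MSI2 (0.987), DNPH1 (0.986), SERPINB1 (0.986) and ABHD5 (0.983). AKR1C3, itself on the list of NRF2 targets, had IL-1β differences of 3.02 on HK-2 slide 1 and 2.68 on RPTEC/TERT1 slide 2, against -2.22 on HK-2 slide 2 and -2.52 on RPTEC/TERT1 slide 1. Its Empa differences, -0.34, -0.61, -0.82 and -0.38 on HK-2 slides 1 and 2 and RPTEC/TERT1 slides 1 and 2, were all below control. None of the 5 passed with IL-1β, and their fitted differences lay between 0.15 and 0.68.

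**Figure D4:**
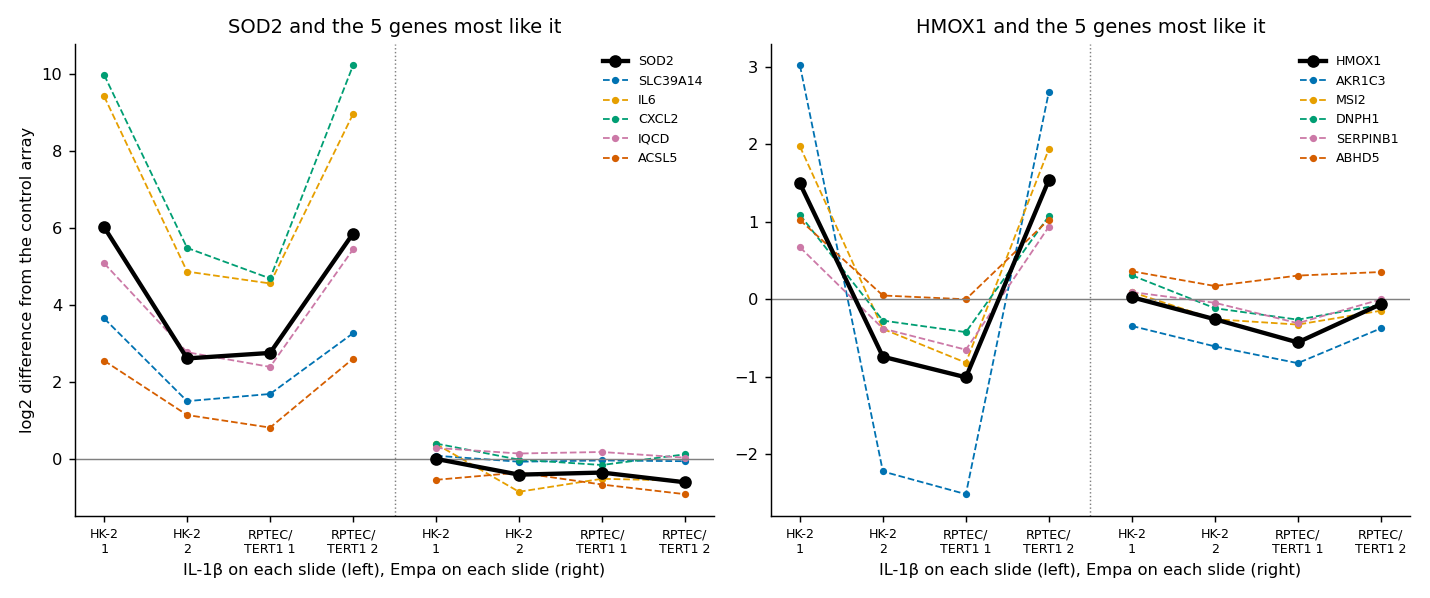
Lines join the log2 differences from control (vertical axis) on the 4 slides with IL-1β and with Empa (horizontal axis) for SOD2, HMOX1 and the 5 genes most like each. The IL-1β differences of SOD2 and its 5 genes were above 0 on every slide, whereas HMOX1, AKR1C3, MSI2, DNPH1 and SERPINB1 lay above 0 on HK-2 slide 1 and RPTEC/TERT1 slide 2 and below 0 on the others.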

How the data were processed

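Total RNA of 12 samples was measured on 1-color Agilent human 4x44K arrays. Per the file headers, the deposited array files hold spot intensity from Agilent Feature Extraction 9.5.3.1, background-subtracted and not normalized between arrays, with software flags for each spot. The authors also deposited a table of normalized log2 values, used as an alternative only, with 0 columns unused. Signals of 43118 gene spots per array were divided by their 75th percentile, brought to a common level, floored at 1 unit and taken to log2. Spots marked as outliers were left out and spots of a probe averaged. Of 34127 probes, those were kept if every array gave a value and 1 or more groups had both arrays well above background, with the brightest probe for each gene, which gave 15717 genes. Differences were fitted in limma 3.58.1 (R 4.3.3) with slide and treatment as terms and 6 residual degrees of freedom, and p-values adjusted by Benjamini-Hochberg. Line differences used the interaction of line label and treatment. The methods name an unpaired t-test for other data, used here only as an alternative count.

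Slide was kept as a block because each treated array is compared with the control array of its own slide. Deviations from group means correlated between arrays of a slide, with r from 0.592 to 0.906. With 2 arrays in a group these deviations mirror each other, and each label held unlike slides. The r therefore does not measure an effect of the slide itself. The code was tested on 1 set of simulated data with slide as a block. Of 15717 genes, 50 were changed at each size, by the same amount on every slide and with normal noise. The code recovered 0% of the 50 at a true log2 change of 0.5, 42% at 1, 88% at 2 and 94% at 4. With all sizes in the same set there were 9 false calls. On the arrays the IL-1β differences of SOD2, HMOX1 and SLC7A11 varied by slide, so these rates need not hold there. A gene that did not pass may thus still have changed, also by a log2 difference of 1 or more. Tables and figures used Python 3.11.15 with numpy 2.4.6, pandas 2.3.3 and matplotlib 3.10.9. Named genes were the 10 members, NFE2L2, KEAP1, BACH1 and 3 genes known to respond to IL-1β; the 3 widest differences among called genes of each further list, or the 2 widest where none was called; and the 5 genes most like SOD2 and HMOX1. A few others are named to complete counts. The members and lists were chosen with earlier results of these data known. Alternatives covered the block, normalization, floor, filters, outlier spots, probes of a gene, left-out arrays and slides, and each line label alone.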

Additional observations from a re-analysis of the deposited data

Results flagged for a closer look

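For GCLM, the Empa difference on RPTEC/TERT1 slide 2 was 0.62 on the log2 scale, while the other 3 slides lay between -0.16 and -0.06. The gap to its nearest neighbor was 0.873 of the whole range, above the limit of Dixon's test for 4 values. Among 19 sets of 4 differences checked this was the only one, and chance alone marks about 1 in 20.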

How the results depend on the processing

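The rise of SOD2 with IL-1β kept its direction under every alternative run. It passed the threshold in 9 of 12 of them and in all 16 fits that left out an array or slide (log2 difference 3.75 to 4.88, adjusted p 0.00332 to 0.0308). It did not pass without the slide block (adjusted p = 0.0881) or with HK-2 (0.0793) or RPTEC/TERT1 (0.214) arrays alone, where fewer samples were fitted.

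Without the slide block, IL-1β called 8 genes and 0 members, and Empa 0 genes. With a treatment effect for each line, the counts were 864 and 0. The HK-2 arrays alone gave 47 genes with IL-1β and 3 with Empa, and the RPTEC/TERT1 arrays alone 0 and 0, with 0 members each. The unpaired t-test gave 46 and 2 with adjustment, and 2015 and 625 without. Empa called 0 genes in the authors' table, with a floor of 5 units, with no filter on dim probes and with probes above background on all 12 arrays. Members called with IL-1β were 2 with the floor of 5, beside 2036 of 15717 genes, and 2 with outlier spots kept, beside 2058 of 16065.

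With an array or slide left out, IL-1β called 445 to 2963 genes, and 1 to 3 members, and Empa called 0 to 1 genes and 0 members. The IL-1β count moved most without the control, IL-1β or Empa array of HK-2 slide 1 (804, 1057 and 2963), the control array of HK-2 slide 2 (1036) or RPTEC/TERT1 slide 1 (1268), the control or IL-1β array of RPTEC/TERT1 slide 2 (790 and 811), or without HK-2 slide 1 or 2 (1084 and 890) or RPTEC/TERT1 slide 1 or 2 (1140 and 445). An arm left with fewer arrays was assumed to vary like the others.

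Reversed signs were all of values that did not pass. With IL-1β, NQO1 was 0.16 after quantile normalization, 0.050 with normexp, 0.055 in the authors' table and 0.0033 in RPTEC/TERT1 arrays alone, and GCLM was 0.12 there. With Empa in HK-2 arrays alone, NQO1 was -0.066, GCLM -0.087 and TXNRD1 -0.094. Left-out fits spanned 0 for HMOX1 (-0.084 to 0.76), NQO1 (-0.097 to 0.10) and GCLM (-0.26 to 0.038) with IL-1β, and for SOD2 (-0.67 to 0.018), HMOX1 (-0.45 to 0.066), GCLM (-0.11 to 0.17) and TXNRD1 (-0.0097 to 0.62) with Empa. Beyond fewer samples or genes, the cause was not tested. The median of all genes with IL-1β was -0.11 in the scaling used and -0.04 after quantile normalization. SLC7A11 was not tested with probes above background on all 12 arrays. Saturation limits SOD2 and SOD3, and dim spots SLC7A11.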
